A study of Mus musculus with 6 samples.

Results

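The mRNAs described here encode 9 proteins of redox defence and heme breakdown, namely *Nqo1*, *Nqo2*, *Hmox1*, *Hmox2*, *Blvra*, *Blvrb*, *Srxn1*, *Osgin1* and *Ephx1*. Members were chosen by gene name: every non-control probe carrying 1 of the 9 names on the array was taken, which gave 13 of 56605 probes and 9 of 37074 named genes. A probe was tested if the scanner software called it well above background in 3 or more of the 6 hybridisations, which held for 12 of the 13 and for 32074 probes in all. RNA came from LSK cells (lineage marker-negative, c-Kit+ and Sca-1+ cells of the bone marrow, a fraction that holds haematopoietic stem cells and multipotent progenitors) of C57BL/6 mice at P6 to P8. The control mice were Atg5w/w;VaviCre+ and the others Atg5f/f;VaviCre+, hereafter Atg5f/f;Vav, so that both groups carried the Vav-iCre transgene, which is active in haematopoietic tissue. Each group had 3 samples, each on 1 array. Whether a sample was 1 mouse or a pool is not given in the sources used here, so the p-values measure the spread between these samples. In such bulk RNA, fewer cells of a type and less RNA per cell cannot be told apart. Among the controls, replicate 1 stood apart from replicates 2 and 3 in some stromal genes, *Col1a1* among them. Stromal values are given with the cell markers, and the member calls are given below without each control.

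Nrf2 (encoded by *Nfe2l2*) is a transcription factor that Keap1 hands to a ubiquitin ligase for degradation. Oxidants, and the autophagy receptor p62 when it accumulates, disturb Keap1 and let Nrf2 bind antioxidant response elements together with small Maf proteins, where Bach1 acts as a repressor that heme displaces. Among its classical targets are *Nqo1*, which reduces quinones by a pair of electrons at once, and *Hmox1*, the inducible heme oxygenase that opens heme into biliverdin, carbon monoxide and iron. Biliverdin reductases then turn biliverdin into bilirubin.

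Of the 12 tested probes, 8 passed the threshold of an adjusted p of 0.05 (limma, Benjamini-Hochberg over all tested probes), 6 higher and 2 lower in Atg5f/f;Vav LSK cells. The same threshold was passed by 34.4% of all tested probes, 17.3% higher and 17.1% lower. The 2 groups of arrays did not overlap for 8 of the 12 member probes, 6 higher and 2 lower, against 55.4% of all tested probes (27.1% higher and 28.3% lower). By gene, with the brightest probe standing for it, *Nqo1*, *Nqo2*, *Blvra*, *Blvrb* and *Srxn1* were higher, *Osgin1* and *Ephx1* were lower, and *Hmox1* and *Hmox2* did not pass the test. The median log2 difference over the 9 genes was 0.55, and over all 20778 genes it was -0.03. The members therefore did not share 1 direction.

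**Figure D1:**
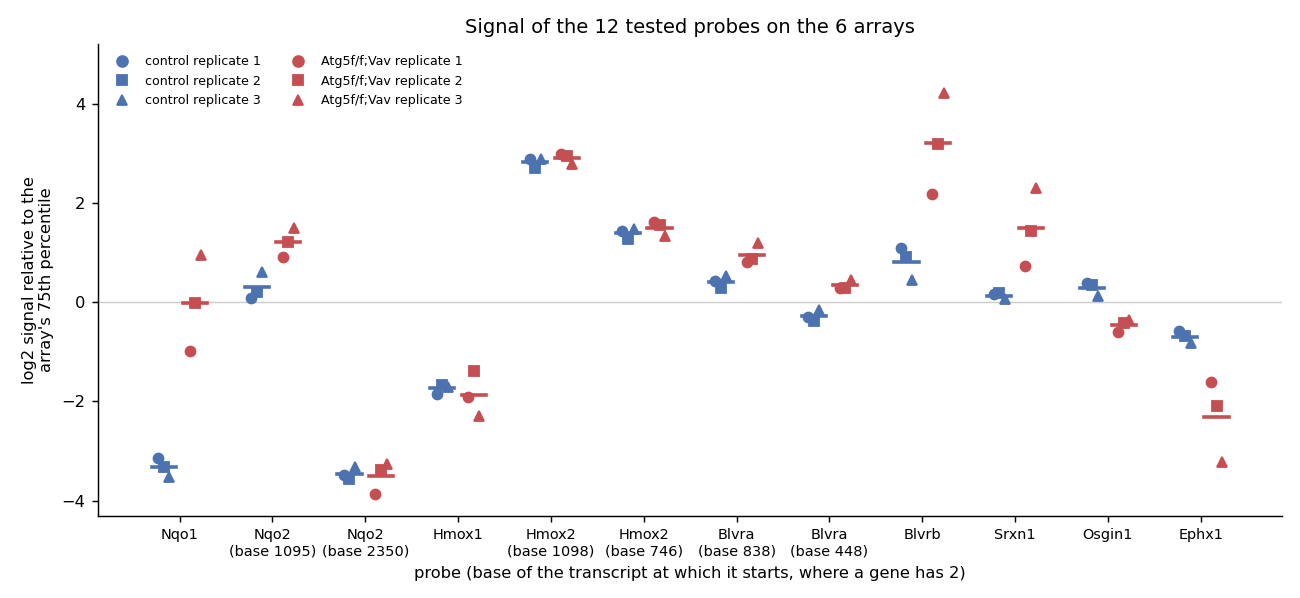
The vertical axis gives log2 signal relative to the 75th percentile of the array for each of the 12 tested probes, in control (blue) and Atg5f/f;Vav (red) LSK cells. Each symbol is 1 array, the bars are group means, and the groups lie apart for 8 probes, most widely for *Nqo1*, where the gap between the groups is 2.16.

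The probe sequences show which stretch of each mRNA was read, and they matter most where a gene had a pair of probes. Those below are printed in the sense direction, 5′ to 3′, as their first 30 of 60 bases, their last 30 or their whole length. The hexamer AATAAA, the usual polyadenylation signal, is in capitals where present. The probes of *Osgin1*, *Hmox1* at base 462, *Hmox2* at base 1098 and *Blvra* at base 838 are not printed.
Nqo1, base 1177, first 30 bases: taggtcatttatgcaatattcgccattttc
Nqo2, base 1095, first 30 bases: acagtgcccaccaatgagtgtcttcagttt
Nqo2, base 2350, last 30 bases: gactgatcagacctgagaAATAAAgccctt
Hmox1, base 1489, first 30 bases: gtgggtgggaaagaattattaatagttgta
Hmox2, base 746, whole probe: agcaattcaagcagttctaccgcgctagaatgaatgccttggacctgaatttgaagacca
Blvra, base 448, whole probe: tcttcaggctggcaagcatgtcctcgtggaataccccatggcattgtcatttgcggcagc
Blvrb, base 808, first 30 bases: aatagaggggtcAATAAAtttttagccaaa
Srxn1, base 2708, first 30 bases: gaagaatgtatgggaactctagtctctgca
Ephx1, base 1603, first 30 bases: tcgccccactgcatagctgtgttaagctac
The base is the position in the transcript at which the array design places the start of the probe. AATAAA occurred in 2 of the 13 probes, the distal probe of *Nqo2* and the probe of *Blvrb*. All 3 reading frames held a stop codon in 5 of the 13 probes, and the *Blvra* probe at base 448 was open in all 3 frames. No gene model of the build mm9 was used here, so exons and UTRs were not assigned.

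The quinone reductases differed in their change. *Nqo1* was read by 1 probe (mm9 chr8:109912440-109912499, minus strand). Its background-corrected intensity was 74.1, 64.9 and 65.3 in control replicates 1, 2 and 3 and 443, 694 and 1203 in Atg5f/f;Vav replicates 1, 2 and 3, and the probe was well above background on all 6 arrays. All 3 Atg5f/f;Vav arrays lay far above the controls, yet they also differed among themselves, with an SD of log2 signal 5.3 times that of the controls. On the normalised log2 scale the difference of 3.32 (SE 0.45, 95% interval 2.26 to 4.37, n = 3 per group, limma adjusted p = 0.0121) was a 9.96-fold rise and ranked 51st in size among all tested probes. The size depended on how the dim control signals were treated, and with normexp background correction the log2 difference was 2.51 (limma adjusted p = 0.00281).

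*Nqo2*, a related quinone reductase that takes its electrons from dihydronicotinamide riboside, had a pair of probes that gave different answers. The probe at base 1095 (mm9 chr13:34077456-34077515) read log2 signals relative to the 75th percentile of 0.09, 0.21 and 0.61 in control and 0.91, 1.21 and 1.50 in Atg5f/f;Vav replicates 1, 2 and 3. The groups were separated by 0.30, and the mean rose by 0.91 (SE 0.20, 1.88-fold, limma adjusted p = 0.0201). The distal probe at base 2350 (mm9 chr13:34078711-34078770), close to AATAAA, read -3.49, -3.55 and -3.32 in control and -3.85, -3.37 and -3.27 in Atg5f/f;Vav cells. This distal probe was dim, with intensities of 55.5 to 74.6 over the 6 arrays, against 697 to 1758 for the probe at base 1095. With the distal probe the groups overlapped and the log2 difference was -0.04 (SE 0.18, 95% interval -0.46 to 0.37, limma adjusted p = 0.857). The rise of *Nqo2* therefore rests on the proximal probe, and the mean of both probes gave 0.43 (limma adjusted p = 0.106).

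The heme oxygenases come next in the pathway. *Hmox1* was read by a probe at base 1489 (mm9 chr8:77624406-77624466), with log2 signals of -1.84, -1.66 and -1.70 in control and -1.92, -1.40 and -2.30 in Atg5f/f;Vav replicates 1, 2 and 3. The control values lay inside the range of the Atg5f/f;Vav values, the highest and the lowest arrays being both Atg5f/f;Vav. The log2 difference was -0.14 (SE 0.22, limma adjusted p = 0.657), and its 95% interval of -0.67 to 0.40 does not reach the size seen for *Nqo1*. The sign of this difference turned with the scaling, to 0.021 under quantile normalisation, and it was 0.078 without Atg5f/f;Vav replicate 3. The other *Hmox1* probe, at base 462, was not well above background on any array and was not tested.

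*Hmox2*, the constitutive heme oxygenase, was read alike by both of its probes. At base 1098 (mm9 chr16:4766093-4766152) the log2 signals were 2.89, 2.70 and 2.89 in control and 2.98, 2.95 and 2.78 in Atg5f/f;Vav cells, with a difference of 0.08 (SE 0.12, 95% interval -0.20 to 0.36, limma adjusted p = 0.62). At base 746 (mm9 chr16:4764988-4765047) the difference was 0.11 (SE 0.12, 95% interval -0.18 to 0.41, limma adjusted p = 0.499). The groups overlapped for both probes, and the difference at base 1098 turned to -0.13 when arrays were scaled on detected probes and to -0.18 under quantile normalisation.

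Both biliverdin reductases were higher. *Blvra*, the main biliverdin reductase of adult tissues, was read by a pair of probes. At base 838 (mm9 chr2:126922489-126922548) the log2 signals were 0.42, 0.28 and 0.53 in control and 0.81, 0.87 and 1.20 in Atg5f/f;Vav cells. At base 448 (mm9 chr2:126912587-126912646) they were -0.30, -0.39 and -0.16 in control and 0.29, 0.28 and 0.45 in Atg5f/f;Vav cells. Every Atg5f/f;Vav array was above every control array with both probes, and the rises were 0.55 (SE 0.14, 1.47-fold, limma adjusted p = 0.0284) and 0.62 (SE 0.12, 1.54-fold, limma adjusted p = 0.0166).

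*Blvrb*, which reduces biliverdin IXβ and also flavins and is abundant in erythroid cells, was read by 1 probe (mm9 chr7:28250944-28251000). Its log2 signals were 1.09, 0.90 and 0.44 in control and 2.17, 3.19 and 4.22 in Atg5f/f;Vav replicates 1, 2 and 3. The lowest Atg5f/f;Vav array was 1.09 above the highest control. The difference of 2.39 (SE 0.48, 95% interval 1.24 to 3.53, limma adjusted p = 0.0174) corresponded to 5.23-fold and was the next largest among the members after *Nqo1*.

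The remaining targets split in direction. *Srxn1*, encoding sulfiredoxin, which restores peroxiredoxins inactivated by over-oxidation (mm9 chr2:151937009-151937068), read 0.16, 0.18 and 0.06 in control and 0.74, 1.44 and 2.31 in Atg5f/f;Vav cells. The 3 controls were nearly equal whereas the Atg5f/f;Vav arrays were spread widely, with an SD 12.7 times as large. *Srxn1* rose by 1.36 (SE 0.36, 95% interval 0.51 to 2.21, 2.57-fold, limma adjusted p = 0.0297).

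*Osgin1*, an oxidative stress-induced growth inhibitor (mm9 chr8:121970077-121970136), went the other way, with log2 signals of 0.39, 0.34 and 0.13 in control and -0.61, -0.41 and -0.35 in Atg5f/f;Vav cells. The groups were tight and 0.49 apart, and the log2 difference was -0.74 (SE 0.13, 1.67-fold lower, limma adjusted p = 0.0153). *Ephx1*, the microsomal epoxide hydrolase (mm9 chr1:182919689-182919748, minus strand), read -0.59, -0.69 and -0.83 in control and -1.62, -2.09 and -3.21 in Atg5f/f;Vav cells. It fell by 1.60 on the log2 scale (SE 0.38, 95% interval -2.50 to -0.71, 3.04-fold lower, limma adjusted p = 0.0225), and Atg5f/f;Vav replicate 3 lay lowest.

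**Figure D2:**
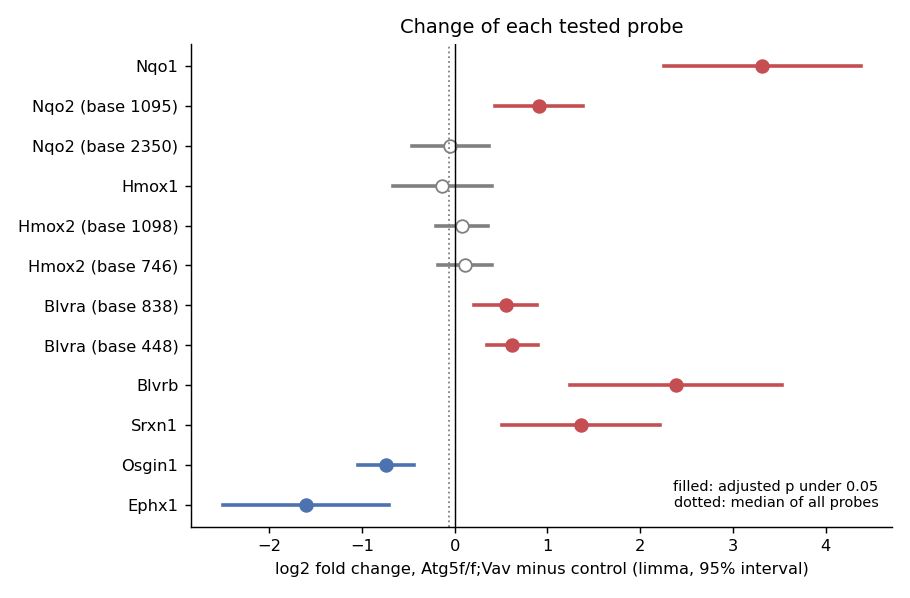
The horizontal axis gives the log2 difference, Atg5f/f;Vav minus control, for each tested member probe with its 95% interval from limma, filled where the probe passed the test, and the dotted line is the median of all probes, -0.06. Intervals clear of 0 belong to the 8 probes that passed the test, from 3.32 for *Nqo1* to -1.60 for *Ephx1*, while the intervals of *Hmox1*, *Hmox2* and the distal *Nqo2* probe span 0.

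The calls depended on which control arrays were kept. Without control replicate 1, or without control replicate 2, the count of member probes that passed fell from 8 to 0, although all 8 had an unadjusted p under 0.05 in both cases, and for *Nqo1* the limma adjusted p was then 0.051 and 0.061. The fall was not particular to the members. Of all 32074 tested probes, 11024 passed with every array, and 330 and 251 in these cases. An unadjusted limma p under 0.05 was then reached by 11616 and 11455 of them. Without control replicate 3, which likewise leaves a pair of controls, 7 member probes passed, all but *Srxn1* (limma adjusted p = 0.074), and 8344 probes in all. Arrays of both genotypes shared 1 slide, with controls in its first row and Atg5f/f;Vav in its second, so that the row and the genotype cannot be told apart.

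Enzymes that carry out related reactions were then set against each other within each array, as 3 pairs. The log2 signal of *Nqo1* minus that of *Nqo2* was -3.23, -3.54 and -4.13 in control and -1.91, -1.22 and -0.55 in Atg5f/f;Vav cells. This difference shifted by 2.41 (SE 0.47), so *Nqo1* rose 5.31-fold more than the proximal *Nqo2* probe, with no overlap between the groups. The shift was 1.66 with normexp background correction and 2.88 with the mean of both *Nqo2* probes. *Blvrb* minus *Blvra* was 0.67, 0.62 and -0.08 in control and 1.36, 2.33 and 3.02 in Atg5f/f;Vav cells, a shift of 1.84 (SE 0.54), or a 3.57-fold larger rise of *Blvrb*. Both shifts had a 2-sided exact permutation p = 0.1, the smallest that 3 arrays against 3 allow, and p = 0.15 after Benjamini-Hochberg adjustment over the 3 pairs. *Hmox1* minus *Hmox2* was -4.73, -4.36 and -4.59 in control and -4.90, -4.34 and -5.08 in Atg5f/f;Vav cells, and the shift of -0.21 (SE 0.25, exact permutation p = 0.5, adjusted 0.5) was within the spread of the arrays.

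**Figure D3:**
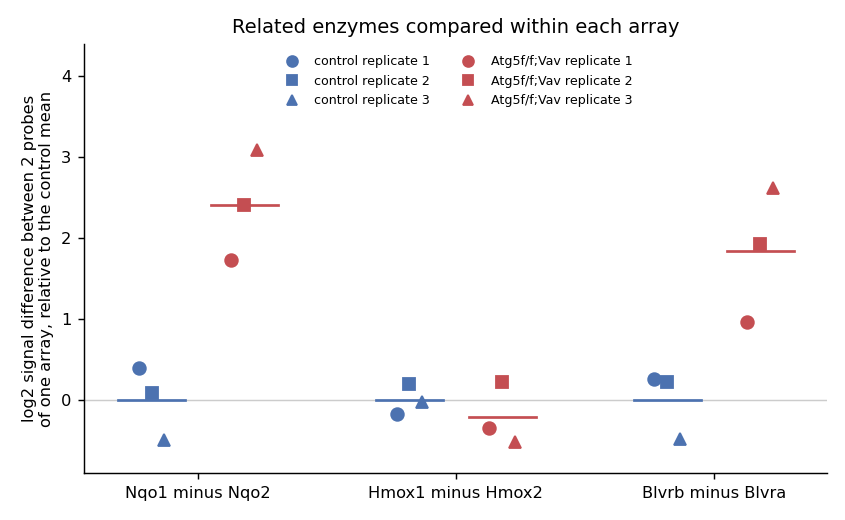
The vertical axis gives the log2 signal of an enzyme minus that of its relative on the same array, set to 0 at the control mean, for 3 pairs in control (blue) and Atg5f/f;Vav (red) cells. Symbols are arrays and bars are group means. The mean shift is 2.41 for *Nqo1* minus *Nqo2* and 1.84 for *Blvrb* minus *Blvra*, whereas the arrays overlap for *Hmox1* minus *Hmox2*.

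The Atg5f/f;Vav arrays were not equally far from the controls. Of the 8 member probes that passed, 7 (87.5%) were farthest from the control mean on Atg5f/f;Vav replicate 3, the exception being *Osgin1*, and 6 (75%) were nearest on replicate 1. Among all probes that passed, replicate 3 was farthest for 75.3% and replicate 1 nearest for 45%. *Nqo1*, *Blvrb*, *Srxn1* and *Ephx1* had the wide spreads, whereas *Osgin1* and *Blvra* at base 448 were about as tight as in the controls. Without Atg5f/f;Vav replicate 3 all 8 member probes still passed, and 9701 probes in all, against 11024 with every array. Without Atg5f/f;Vav replicate 2 there were 6 member probes, since *Srxn1* (limma adjusted p = 0.0605) and *Blvra* at base 838 (limma adjusted p = 0.0518) no longer passed. Over all tested probes the count was then 7722.

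The genes around the members were examined as 5 lists. Of the other Nrf2 targets, 22 of 25 were tested, and 13 were higher, 2 were lower and 7 did not pass, with a median log2 difference of 0.56. Of all genes tested, 34.1% passed, 18.7% higher and 15.3% lower, around a median of -0.03. *Gclm*, the modifier subunit of the enzyme that limits glutathione synthesis, rose by 1.61 (SE 0.33, limma adjusted p = 0.0181) and *G6pdx*, which supplies NADPH, by 1.28 (SE 0.28, limma adjusted p = 0.0203). Lower were the probe named for the glutathione transferase *Gstm1*, at -0.78 (SE 0.20, limma adjusted p = 0.029), and the glutathione peroxidase *Gpx2*, at -0.65 (SE 0.15, limma adjusted p = 0.0217). The array design places this *Gstm1* probe at mm9 chr5:117082490-117082549, minus strand. Whether that is the *Gstm1* locus was not checked, so its value may not describe the gene. *G6pd2*, counted among the higher genes, exceeded background in just 1 of the 3 controls, and *Aox1* in no sample.

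Among 11 regulators of the antioxidant response element, 2 were higher and 1 lower. *Keap1* rose by 0.51 (SE 0.13, limma adjusted p = 0.0272) and so did *Rbx1*, a subunit of the ubiquitin ligase that Keap1 recruits, by 0.51 (SE 0.12, limma adjusted p = 0.0239). *Nfe2l2* itself read 1.69, 1.45 and 1.63 in control and 1.91, 1.81 and 2.22 in Atg5f/f;Vav cells. Its groups did not overlap, but the difference of 0.39 (SE 0.14, limma adjusted p = 0.0739) did not pass. *Bach1* differed by -0.25 (SE 0.12, limma adjusted p = 0.14) and did not pass, whereas its relative *Bach2*, known from B cells, was lower by -0.75 (SE 0.23, limma adjusted p = 0.0462).

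Heme synthesis, the reverse side of heme breakdown, had 4 of 9 enzymes higher and 1 lower, with a median of 0.75. *Cpox* and *Alad* rose by 1.56 (SE 0.47, limma adjusted p = 0.0428) and 1.36 (SE 0.28, limma adjusted p = 0.0181). *Alas2*, the erythroid form of the enzyme that starts the pathway, was lower in every Atg5f/f;Vav array, reading 1.66, 1.48 and 0.13 in control and -1.31, -0.69 and -0.93 in Atg5f/f;Vav cells (difference -2.07, SE 0.40, limma adjusted p = 0.0168).

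Of 10 heme and iron transporters, 9 were tested, 3 were higher and 1 lower. *Slc40a1*, encoding the iron exporter ferroportin, rose by 2.15 (SE 0.46, limma adjusted p = 0.0187) and *Slc11a2*, a ferrous iron importer, by 1.37 (SE 0.28, limma adjusted p = 0.0181). *Slc25a37*, the mitochondrial iron carrier mitoferrin of erythroid cells, was at -0.71 (SE 0.14, limma adjusted p = 0.0168), and *Flvcr2* was not well above background on any array. Among partner and same-reaction enzymes 12 of 13 were tested, and 5 were higher and none lower. These included *Ephx2*, the soluble epoxide hydrolase, at 1.95 (SE 0.52, limma adjusted p = 0.031), opposite in direction to *Ephx1*, and the peroxiredoxin *Prdx3* at 0.83 (SE 0.19, limma adjusted p = 0.0211). *Prdx1* stands in both this list and that of Nrf2 targets, and *Ephx4* was not well above background on any array. Over the 5 lists 31 genes passed, and the count was 1 without control replicate 1, 0 without control replicate 2, and 20 without control replicate 3 or without Atg5f/f;Vav replicate 2. Over all tested probes, 11024 passed with every array, and 330, 251, 8344 and 7722 in these cases, in the same order.

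**Figure D4:**
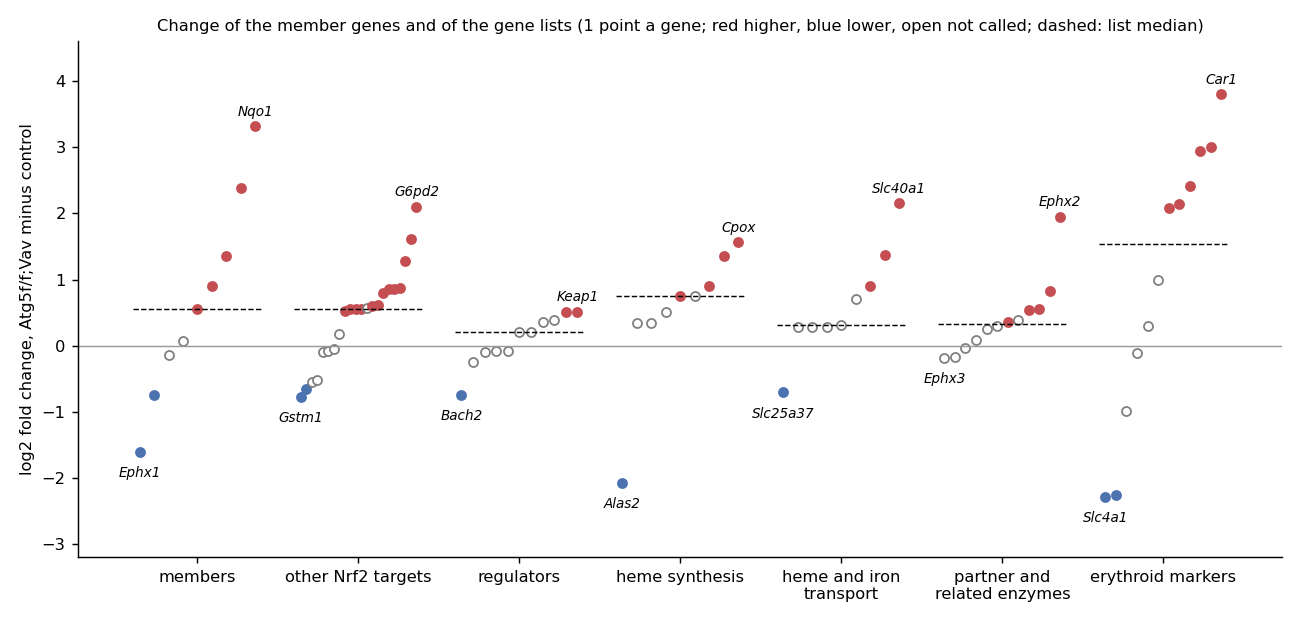
Each point is the log2 difference, Atg5f/f;Vav minus control, of 1 tested gene of a list, red if higher and blue if lower by the limma test and open if neither, for the members, the 5 lists and the erythroid markers, and dashed lines mark medians. The list of other Nrf2 targets has a median of 0.56 and heme synthesis 0.75, with *Alas2* as the low point of the latter at -2.07.

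The label of the cells was checked against their markers. All 7 LSK markers, *Kit*, *Cd34* and *Flt3* among them, were detected. *Ly6a*, which encodes the sorting antigen Sca-1, was 1.57 higher (SE 0.15, limma adjusted p = 0.00623) in Atg5f/f;Vav cells, and *Ptprc* was lower, at -0.34 (SE 0.11), while the other 5 did not pass, the lowest being *Flt3* at -0.87 (SE 0.31, limma adjusted p = 0.0675). The log2 of the summed LSK marker signal was 7.05 to 7.14 in control and 6.47 to 7.16 in Atg5f/f;Vav cells. Here and below, signals were summed on the linear scale, so the brightest markers of a list weigh most.

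Erythroid markers moved with the members. Of 12 markers, 6 were higher, namely *Car1*, *Gata1*, *Klf1*, *Rhag*, *Tfrc* and *Epor*, and 2 were lower, *Slc4a1* and *Hba-a1*. *Car1*, an erythroid carbonic anhydrase, read -0.87, -1.06 and -1.32 in control and 1.53, 2.64 and 3.98 in Atg5f/f;Vav cells, the same ranking of arrays as *Nqo1*, and the difference was 3.80. The lowest was *Slc4a1*, the band 3 anion exchanger of red cells, at -2.29. The log2 of the summed marker signal ran the opposite way, from 7.88 to 9.01 in control and from 6.66 to 7.42 in Atg5f/f;Vav cells. In the controls most of that sum was *Hba-a1*, at 8.90, 8.84 and 7.72, so its fall largely restates that of this gene. All 12 markers passed the filter on dim probes, and the lineage stain of the sort included Ter119. Their part in the rise of *Nqo1*, *Blvrb* and the heme synthesis genes was not tested.

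Macrophages, which clear aged red cells, are a rich source of *Hmox1*. Of 11 macrophage markers 7 were tested, none was higher and 2 were lower. Their log2 differences ran from -1.42 for *Vcam1*, which passed, to 0.61 for *Fcgr1*, which did not, and *Mrc1* and *Cd163* were not well above background on any array. The log2 of the summed macrophage signal was 4.93 to 5.02 in control and 3.98 to 4.73 in Atg5f/f;Vav cells. Most of that sum was 1 gene, *Lyz2*, which read 4.61 to 4.73 in control and 3.19 to 4.30 in Atg5f/f;Vav cells. Of the 7 tested markers, 4 had a log2 difference above 0, so the sum does not describe the list as a whole. Of 7 stromal markers tested, 4 were lower and none higher, and *Col3a1* and *Cdh5* were not well above background on any array. The summed stromal level was 1.83, 5.02 and 4.67 in control replicates 1, 2 and 3 and 1.23 to 1.61 in Atg5f/f;Vav cells, so that control replicate 1 lay near the Atg5f/f;Vav arrays and the other 2 controls far above. *Col1a1*, a collagen chain and the lowest of them with a difference of -5.98, read -4.14, 3.23 and 2.95 in the controls and -5.23, -5.16 and -5.49 in Atg5f/f;Vav cells, while *Pdgfrb* was at 0.52 and did not pass. Most of the stromal sum in control replicates 2 and 3 was *Col1a1*, *Col1a2* (3.47 and 2.90) and *Sparc* (3.36 and 3.15). Not all stromal markers followed this pattern. *Cxcl12*, at -0.59, -2.19 and -3.12 in the controls, and *Kdr*, at -2.70, -3.06 and -3.44, were highest in control replicate 1. *Col1a1* was well above background on all 3 control arrays but on no Atg5f/f;Vav array. It met the filter through the controls alone, and the size of its difference rests on undetected signals.

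Neutrophil markers were mixed, with 3 of 9 higher, *Mpo* the most at 1.003, and 5 lower, *S100a8* the most at -1.38, and summed levels of 7.45 to 8.11 in control and 7.76 to 8.08 in Atg5f/f;Vav cells. Megakaryocyte markers had 2 of 5 higher (*Gp1ba* at 1.39) and 2 lower (*Vwf* at -0.70), with summed levels of 2.94 to 3.19 and 2.80 to 2.82. Of 6 B cell markers 1 was higher, *Cd79a* at 0.95, whereas *Vpreb1* at 1.25 and *Pax5* at -0.39 did not pass, and the summed levels were 3.19 to 3.59 and 3.39 to 4.10. *Cd79a* exceeded background in just 1 of the 3 controls but in all 3 Atg5f/f;Vav samples. It thus met the filter through the group where it is high. None of 4 tested T and NK cell markers passed, from *Klrb1c* at -0.88 to *Nkg7* at 0.61, *Cd3g* and *Cd8a* were not well above background on any array, and the summed levels were 2.43 to 3.23 and 3.095 to 3.30. None of 5 mast cell and eosinophil markers passed either, from *Fcer1a* at -0.76 to *Mcpt8* at 0.76, with summed levels of 2.46 to 3.46 and 2.57 to 3.30. The part of these cells in the results was not tested. The *Atg5* probe, at base 2251 of its transcript, was 0.54 higher in Atg5f/f;Vav cells (SE 0.12, limma adjusted p = 0.0209). Whether it lies inside the deleted stretch was not determined, so it does not check the genotype.

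**Figure D5:**
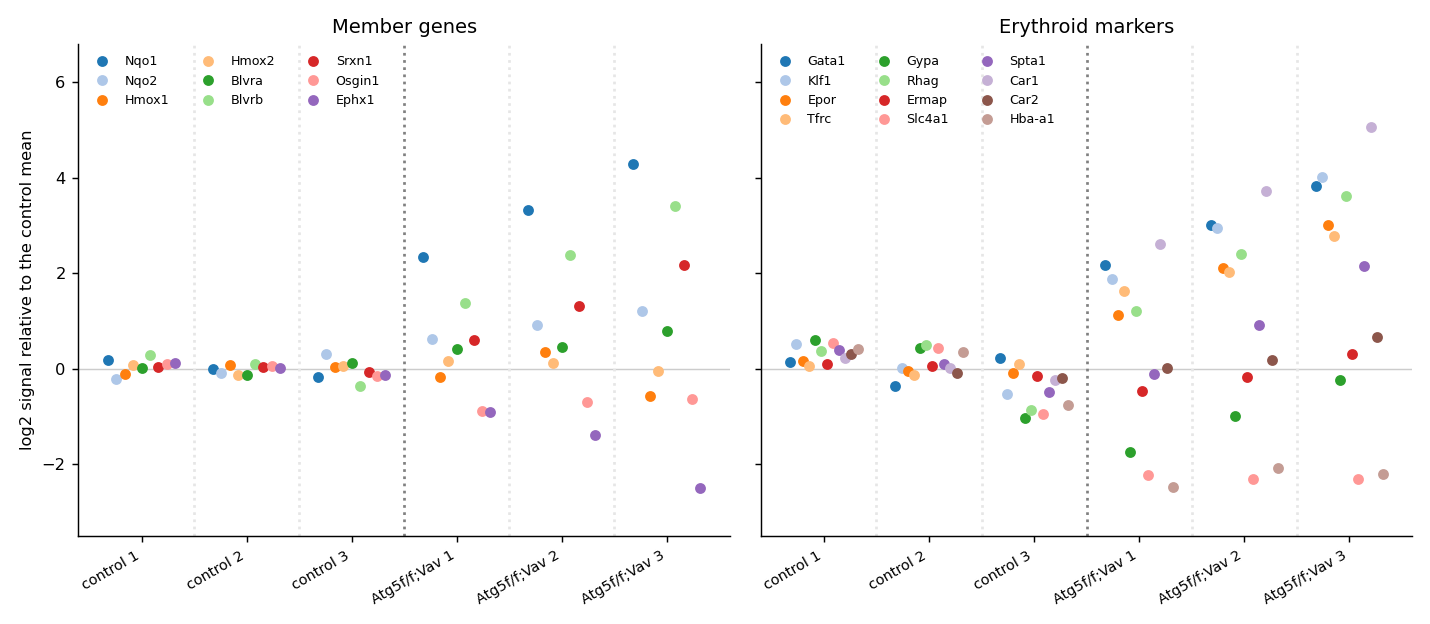
The vertical axis gives log2 signal relative to the control mean on each of the 6 arrays, for the brightest probe of the 9 member genes (left) and for 12 erythroid markers (right), with 1 colour per gene. *Nqo1*, *Blvrb* and *Srxn1* are at their highest, and *Ephx1* at its lowest, on Atg5f/f;Vav replicate 3, where *Car1*, *Gata1* and *Klf1* also peak, while *Slc4a1* and *Hba-a1* lie below the controls on all 3 Atg5f/f;Vav arrays.

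To place the members with the highest rises among all genes, 18381 genes detected on all 6 arrays were ranked by Pearson correlation of log2 signal over the 6 arrays. Nearest to *Nqo1* were *Car1* (r = 0.999), *Tnfaip2*, *Gbp5*, *Slc35c1* and *Epdr1* (r = 0.998). Nearest to *Blvrb* were *Slc22a23* (r = 0.9996), *Icam4*, *Smim1*, *5730508B09Rik* and *Abcb6* (r = 0.997). The arrays form 2 genotype groups and share 1 slide, so the values are a description over 6 points.

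The promoters of the members were searched for the core of the antioxidant response element, TGACNNNGC, on both strands, from 250 bases before to 50 after each transcript start of RefSeq on GRCm38.p6. For 8 of the 9 genes windows were at hand, and *Hmox1* was not among them. The core was found in 2 of 12 member windows and in 4071 of 32851 windows of the same length over all genes, or 12.4%. Both matches, in capitals, lie on the opposite strand, so that the letters printed are the reverse complement of the core.
Blvra, plus strand, chr2:127070557-127070656: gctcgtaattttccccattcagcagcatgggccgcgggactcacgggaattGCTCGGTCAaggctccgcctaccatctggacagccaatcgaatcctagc
Srxn1, plus strand, chr2:152105541-152105570: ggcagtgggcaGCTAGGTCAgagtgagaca
The *Blvra* match spans positions -49 to -41 before the start and the *Srxn1* match 29 to 37 after it. No match was found in the windows of *Nqo1*, *Nqo2*, *Hmox2*, *Blvrb*, *Osgin1* or *Ephx1*, which says only that these letters do not occur there.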

How the data were processed

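LSK RNA was labelled with Cy3 and hybridised to 1-colour Agilent arrays of 60-base probes, 3 per group. The scanner files deposited by the authors hold a background-corrected intensity per spot from Agilent Feature Extraction 12.0.3.1. The authors' table holds the same values as a normalised signal on a linear scale, each intensity divided by 1 factor per array.

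From the intensities, log2 values were taken minus the 75th percentile of each array over 59305 non-control spots. Between 64 and 81 spots an array carried an outlier flag and were dropped, none was saturated, and spots of a probe were averaged. The percentile ranged from 620 to 881, the number of arrays limits the precision, and 51.6% to 58.2% of probes were well above background. Probes that exceeded background in 3 or more samples were fitted with limma 3.58.1 in R 4.3.3 (2-sided, Benjamini-Hochberg over 32074 probes, threshold 0.05). Scripts were tested on simulated data. Groups followed the genotype labels. A gene was represented by its probe of highest mean signal. Pairs were compared by exact permutation over arrays. Alternatives were other scalings and backgrounds, other filters, the methods' t-test, the replicate block, and leaving out each array.

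The members, gene lists and tests were chosen with earlier results of these data known. All members were named, and from each list at most 2 genes each way with the largest passing change, detected on all arrays and without overlap, besides *Nfe2l2*, *Keap1*, *Bach1* and *Atg5*. Of each marker list, the largest change each way and those not above background on any array were named. Other list and marker genes were named after their values were seen. Probe positions are those of the array design on mm9, and promoters come from RefSeq on GRCm38.p6.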

Additional observations from a re-analysis of the deposited data

How the results depend on the processing

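Without the filter on dim probes, 4 of the 8 member probes passed, as did 12 genes of the lists and 4538 probes in all, with 56605 tested. The methods' t-test gave 0 in each case after Benjamini-Hochberg adjustment, against 8 member probes and 13539 probes in all at an unadjusted p under 0.05. Leaving out each array in turn gave 0 to 8 member probes, 0 to 36 genes of the lists and 251 to 10304 probes in all, with 330 without control replicate 1, 251 without control replicate 2 and 8344 without control replicate 3. *Srxn1* also missed the threshold without control replicate 3 (limma adjusted p = 0.074), and *Blvra* at base 838 when arrays were scaled on detected probes (limma adjusted p = 0.059). That scaling moved the median of all probes from -0.06 to -0.27 and the calls to 3371 higher and 10088 lower, from 5540 and 5484. Quantile normalisation left 17 genes of the lists and turned the shift of *Hmox1* minus *Hmox2* to 0.20, *Hmox1* to 0.021 and *Hmox2* to -0.18. *Hmox2* was -0.13 with scaling on detected probes, and *Hmox1* ranged from -0.37 to 0.078 over the arrays left out. The *Atg5* difference stayed at 0.54 but missed the threshold without the filter (limma adjusted p = 0.0567) by the methods' t-test (adjusted p over all probes, 0.055), without control replicate 1 (0.57, limma adjusted p = 0.0727) and without control replicate 2 (0.49, limma adjusted p = 0.0836). It ranged from 0.45 to 0.60 over the arrays left out and was 0.33 with scaling on detected probes, still passing. *Nqo1* ranged from 2.83 to 3.80 and *Blvrb* from 1.88 to 2.90 over the arrays left out, *Nqo1* was 2.51 with normexp background correction, and no setting turned the direction of the 7 genes that passed. The cause of these changes was not tested. Replicate numbers are also slide columns, and the deviations of same-numbered arrays correlated at -0.07, 0.19 and 0.11. Those of arrays with different numbers correlated at -0.30 to 0.13. With 3 arrays a group, such values cannot decide whether the numbers pair the samples. With the replicate block, 8 member probes, 28 genes of the lists and 10173 probes in all passed.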
